A study of Mus musculus with 6 samples.

Results

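The Wnt pathway genes examined here are 38 mouse genes: 15 Wnt ligands, 9 Frizzled (Fzd) receptors, the co-receptor Lrp5, 5 secreted inhibitors and 8 intracellular parts of the pathway. They were chosen by name from the genes lying on sequence that the study's peak list covers, out of 36517 such genes, 15768 of them protein-coding. A peak was assigned to a gene when its midpoint lay in the gene body or within 1 kb of either end. The assay was MBD-seq: sonicated genomic DNA is enriched for fragments with methylated CpG, which the protein MBD2 binds, and those fragments are sequenced. The cells were primary chondrocytes cultured from knee articular cartilage of mice at postnatal day 3 to 5. The 3 control cultures have the labelled genotype Dnmt1 flox, and the 3 conditional knockout (cKO) cultures are Prx1-Cre;Dnmt1 flox/flox; the labels call them biological replicates and give no Cre status for the controls. Prx1-Cre is driven by a limb mesenchyme enhancer, and Dnmt1 is the enzyme that maintains CpG methylation when DNA is copied.

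The study's question is how Dnmt1 acts on gene expression through methylation of DNA. The deposited values used here are 1 list of 84111 peaks, called after 3 datasets had been merged. The list is titled as regions of Dnmt1-mediated DNA methylation. Whether it was called on control, on cKO or on control over cKO could not be worked out. What the caller took as background is thus unknown, and a gene without a peak is not shown to be unmethylated. The peak names do not say which group the 3 datasets came from, and no peak carries a value for any of the 6 samples. No difference between control and cKO, no spread between cultures and no depth per sample can therefore be given for any gene below. The list covers 16 chromosomes, the last of them (chromosome 6) up to 88.8 Mb. A peak list holds no RNA levels, so the chondrocyte label could not be checked against marker genes. All counts and shares are descriptions of this 1 list.

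Wnt proteins are secreted, lipid-modified ligands. They bind Frizzled receptors together with Lrp5 or its relative Lrp6, which recruits Dishevelled (Dvl) and Axin to the membrane and stops the destruction complex of Axin and Apc from marking β-catenin for breakdown. β-catenin then acts with transcription factors of the TCF/LEF family. In the growing skeleton this pathway is known for roles in joint formation, chondrocyte hypertrophy and bone formation, and secreted Dkk and Sfrp proteins restrain it.

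Because MBD2 binds methylated CG dinucleotides, the sequence at the gene starts sets what could be captured there. Promoter windows of 300 bases, from 250 before to 50 after a transcription start, were taken from RefSeq (GRCm38.p6) and matched 26 of the 38 genes by symbol. Wnt5a, Wnt7b, Wnt8a, Wnt10a, Fzd2, Fzd3, Fzd6, Fzd8, Lrp5, Sfrp4, Axin1 and Apc had no entry. Where several starts are listed, the first along the gene is used for its CG number. The windows held from 6 to 58 CG, with a median of 26.5 against 15 over 12546 protein-coding genes. The 4 windows below are the pair with the fewest CG (Wnt8b and Dkk1) and the pair with the most (Wnt9a and Fzd9). Each is written 5′ to 3′ on the strand of the gene with every CG in capitals.
Wnt8b, chr19:44493222-44493521, plus strand: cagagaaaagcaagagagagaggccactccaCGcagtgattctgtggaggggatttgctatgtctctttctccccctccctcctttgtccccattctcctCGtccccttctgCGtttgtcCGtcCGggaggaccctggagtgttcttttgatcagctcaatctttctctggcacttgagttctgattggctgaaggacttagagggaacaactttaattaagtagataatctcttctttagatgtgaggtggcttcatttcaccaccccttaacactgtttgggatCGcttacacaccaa
Dkk1, chr19:30549447-30549746, minus strand: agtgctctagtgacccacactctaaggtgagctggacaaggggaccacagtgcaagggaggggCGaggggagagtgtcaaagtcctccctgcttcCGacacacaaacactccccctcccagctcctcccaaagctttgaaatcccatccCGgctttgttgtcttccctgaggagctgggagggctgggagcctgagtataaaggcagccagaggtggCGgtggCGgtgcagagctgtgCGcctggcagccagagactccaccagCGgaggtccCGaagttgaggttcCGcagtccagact
Wnt9a, chr11:59306680-59306979, plus strand: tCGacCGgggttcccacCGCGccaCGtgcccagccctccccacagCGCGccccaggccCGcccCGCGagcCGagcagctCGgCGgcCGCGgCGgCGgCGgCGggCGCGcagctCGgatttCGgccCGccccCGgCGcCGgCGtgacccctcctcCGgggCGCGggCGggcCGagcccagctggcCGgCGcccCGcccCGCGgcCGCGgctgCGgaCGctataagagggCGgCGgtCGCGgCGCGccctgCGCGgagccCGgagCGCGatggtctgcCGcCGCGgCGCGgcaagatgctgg
Fzd9, chr5:135250998-135251297, minus strand: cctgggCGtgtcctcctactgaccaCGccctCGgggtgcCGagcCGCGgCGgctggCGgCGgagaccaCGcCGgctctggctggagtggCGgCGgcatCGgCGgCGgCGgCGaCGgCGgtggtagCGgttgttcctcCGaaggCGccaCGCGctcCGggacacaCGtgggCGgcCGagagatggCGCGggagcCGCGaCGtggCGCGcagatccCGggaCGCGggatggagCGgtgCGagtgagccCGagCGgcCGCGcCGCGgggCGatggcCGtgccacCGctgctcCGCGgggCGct
The Wnt8b window held 6 CG and the Dkk1 window 9, against 58 in the Wnt9a window and 53 in that of Fzd9. Wnt8b was the one gene of the 4 with a peak within 1 kb of its start.

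Few of the Wnt genes had a peak at a start, and few protein-coding genes did. None of the 26 had a peak overlapping a promoter window; a count of 0 among 26 allows a share of up to 11.5%, counting error only, and the share over protein-coding genes was 3.43%. Wnt8b, a ligand known from the embryonic brain, was the only one of the 26 with a peak midpoint within 1 kb of a listed start (3.85%, against 7.81% of protein-coding genes). Its peak at chr19:44493570-44493809 was centred 217 bp downstream of the start, with a fold of 8.41 over the caller's background. Widening the distance to 2 kb added Dvl2, Fzd1, Fzd9 and Tcf7l2, the last at its downstream start, so that 5 of 26 genes (19.2%) had a peak there, against 15.5% of protein-coding genes.

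How often a start had a peak within 1 kb varied with the CG number of the window. Over protein-coding genes it was 8.34% with at most 4 CG, 18.3% with 5 to 9, 8.08% with 10 to 19, 4.13% with 20 to 29 and 3.07% with 30 or more. Of the Wnt genes, 11 were in the last of these classes, 7 in the one before it and 6 in the class of 10 to 19, and none of these 24 had a peak within 1 kb of a start, against 5.24% of the protein-coding genes with 10 or more CG. A count of 0 among 24 allows up to 12.5%. Applying the class shares to the 26 genes gives 1.48 genes, so the 1 gene found is near what their CG numbers alone give. The nearest peak lay a median of 7.53 kb from a listed start (quartiles 2.43 and 16.1 kb), against 7.89 kb for protein-coding genes.

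**Figure D1:**
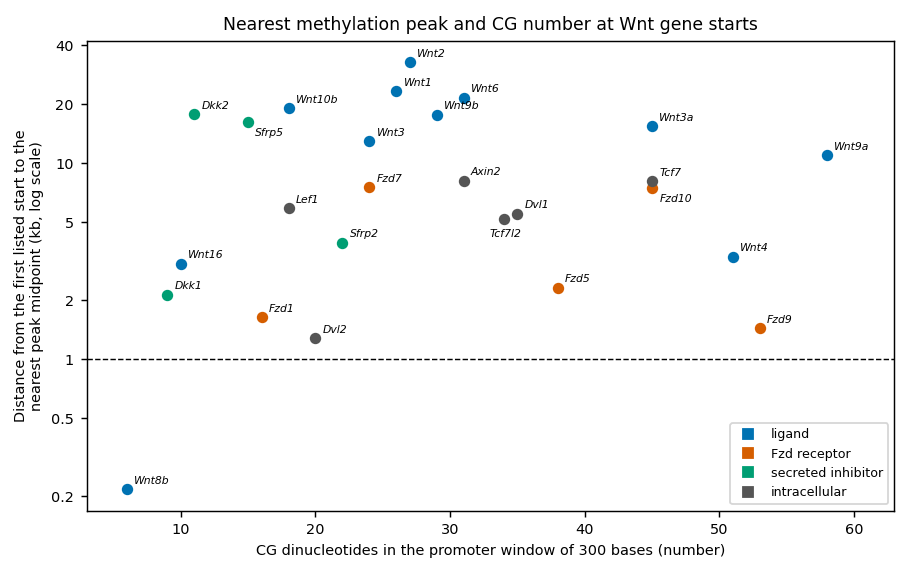
Distance from the first listed start to the nearest peak midpoint (kb, log scale) against the number of CG in the promoter window, 1 point per Wnt gene, coloured by role; the dashed line marks 1 kb. Wnt8b, with 6 CG, is the only point under the line, and the other 25 genes lie above it at CG numbers from 9 to 58.

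Counted over the whole gene, more of the genes had a peak, as was also so over protein-coding genes. Of the 38 genes, 28 (73.7%; 95% Wilson interval 58.0% to 85.0%, counting error only) had at least 1 peak in the body or within 1 kb of an end. The share was 47.8% over all genes and 66.4% over protein-coding genes. Longer genes hold peaks more often, so each gene was also compared with the protein-coding genes of its own length bin, of 10 equal bins. Those bins gave 67.4%, or 25.6 of 38 genes. The 28 genes held 135 peaks, and no peak was counted for more than 1 of them. For each of the 38 genes the mean was taken over the 200 protein-coding genes nearest in length, and these means add up to 99.6 peaks. The peaks were unevenly spread, with 10 genes at 0, 9 genes at 1, 9 genes at 2 to 4 and 10 genes at 5 or more, which together held 102 peaks (75.6%). Lef1 and Tcf7l2 alone held 42 (31.1%).

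**Figure D2:**
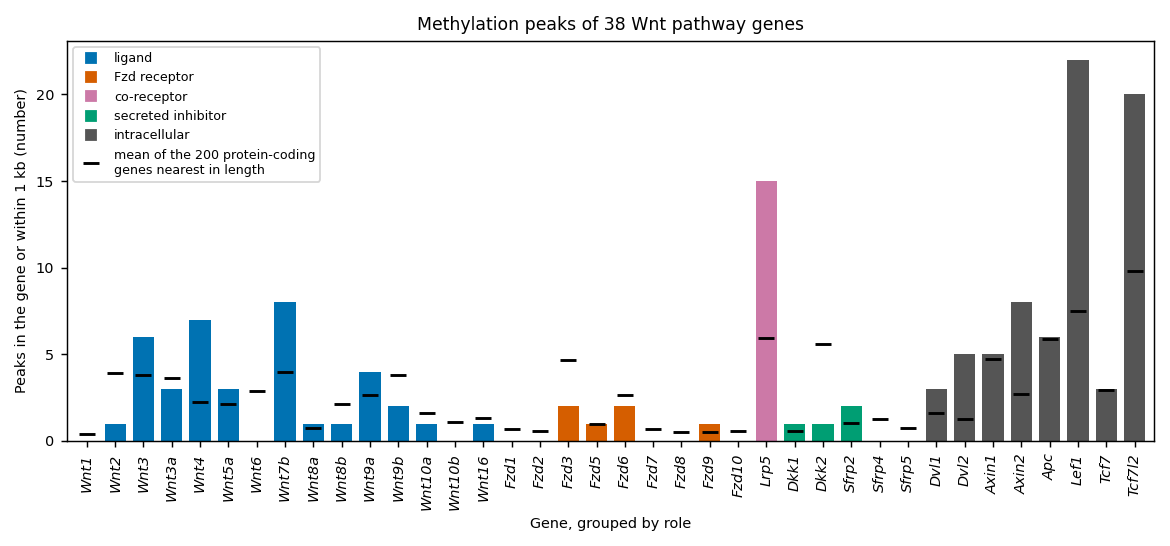
Number of peaks in the body or within 1 kb of an end for each of the 38 genes (bars, coloured by role) and the mean number over the 200 protein-coding genes nearest in length (black dashes). Lef1 (22), Tcf7l2 (20) and Lrp5 (15) stand above their dashes of 7.51, 9.79 and 5.96, while 5 of 9 Fzd genes are at 0.

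Among the 15 ligands, 12 had a peak (80.0%, interval 54.8% to 93.0%), against 70.8% in their length bins. With stricter peaks this turned: at a −log10 q of at least 50 or 100, or a fold of at least the median, ligands were below their length bins. They held 38 peaks, where genes of their lengths hold 36.3. Most were in Wnt7b (8 peaks), a ligand of the canonical pathway known from bone and lung, in Wnt4 (7), which takes part in joint formation and gonad development, and in Wnt3 (6), needed for the early body axis. The Wnt7b gene (chr15:85535437-85581821) has 46.4 kb, and 81.5% of the 200 genes nearest in length held fewer peaks. Its peaks had folds from 5.29 to 44.7. The highest, at chr15:85558675-85559314, rested on a recovered pileup of 375 reads over a background of 7.41. The lowest, at chr15:85537165-85537905, had a higher pileup of 414 reads but stood over a background of 77.5. Of these 2 peaks the one with more reads had the lower fold.

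Wnt4 (chr4:137277635-137299501) is only 21.9 kb long, and 93.0% of genes of its length held fewer than its 7 peaks. They had folds of 8.0, 10.2, 7.19, 12.5, 35.0, 16.7 and 13.5 in order from the start, the last one 788 bp past the far end. Wnt3 held peaks with folds of 18.6, 13.0, 11.1, 39.6, 18.1 and 11.3, the first of them 13.0 kb from the start. Wnt9a had 4 peaks, Wnt3a and Wnt5a 3 each and Wnt9b 2. Wnt5a, the main ligand of β-catenin-independent signalling in the limb and growth plate, had folds of 8.41, 7.73 and 31.3. The middle one stood over a background of 52.8 reads.

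A single peak was found in Wnt2, Wnt8a, Wnt8b, Wnt10a and Wnt16, with folds of 10.4, 7.87, 8.41, 6.51 and 6.78. None of these 5 reached the median fold of 13.7 over the 45186 peaks of protein-coding genes. The Wnt10a peak also lies in the gene model Gm32099. Wnt1, Wnt6 and Wnt10b had no peak. For the 31.0 kb of Wnt6 77.5% of genes of like length held more, and for Wnt1 and Wnt10b, of 3.97 and 7.5 kb, 31.0% and 62.5% did.

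Of the 9 Fzd genes, 4 had a peak (44.4%, interval 18.9% to 73.3%), against 51.5% in their length bins, or 4.63 genes. With a 2 kb window both shares differed by -0.0409 points. Frizzled proteins span the membrane 7 times and carry the cysteine-rich domain that holds the Wnt ligand; many of their genes are compact, and the median length here was 4.38 kb. They held 6 peaks, where genes of their lengths hold 11.8. Fzd3, known for axon guidance and planar polarity, had 2 peaks with folds of 12.8 and 15.9 over 70.0 kb. Fzd6, another polarity receptor, had 2 with folds of 44.9 and 14.7. The first, at chr15:39031068-39031848, had the highest fold of all 135 peaks, with 377 reads over 7.41. Fzd5 held 1 peak of 1231 bp at chr1:64734812-64736042 with a fold of 30.7, centred 2.32 kb downstream of the start. Fzd9 held 1 of 172 bp with a fold of 7.60. Fzd1, Fzd2, Fzd7, Fzd8 and Fzd10 had none; they are 2.99 to 4.81 kb long, and between 38% and 46% of genes of those lengths held a peak.

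Lrp5, the co-receptor whose loss lowers bone mass, was rich in peaks. The gene (chr19:3584825-3686585) held 15, and 94.0% of the 200 genes nearest to its 102 kb held fewer. Their folds ran from 7.73 to 43.3 with a median of 13.8. The highest was at chr19:3612001-3612615, with 318 reads over a background of 6.37, the lowest among the 99.97% of all peaks whose background could be recovered. One lay within 1 kb of a gene end, 309 bp inside it.

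Of the 5 secreted inhibitors, 3 had a peak (60.0%, interval 23.1% to 88.2%), against 58.4% in their length bins, and under 5 of the alternative settings they were below those bins. They held 4 peaks, where genes of their lengths hold 9.16. The lower number rests largely on Dkk2, with 1 peak against 5.59. Sfrp2, which binds Wnt proteins outside the cell, had a narrow peak with a fold of 6.10 and one at chr3:83772991-83773688 with a fold of 44.4, 975 bp inside the far end. The latter had 326 reads over 6.37. Dkk1, which blocks the co-receptors, held 1 peak with a fold of 7.19 in a gene of 3.62 kb. Its relative Dkk2 held 1 with a fold of 12.6 in 95 kb, and 79.5% of genes of that length held more. Sfrp4 and Sfrp5 had no peak.

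All 8 intracellular genes had a peak. The interval is 67.6% to 100%, and the 81.5% of their length bins lies within it. They held 72 of the 135 peaks, where genes of their lengths hold 36.5. Without matching on length, they had 12.4 peaks per 100 kb, against 5.61 over protein-coding genes. On this unmatched scale the ligands had 9.02, Lrp5 14.5, the Fzd genes 4.04 and the secreted inhibitors 3.05. Beside genes of their lengths, the ligands held 38 peaks against 36.3, Lrp5 15 against 5.96, the Fzd genes 6 against 11.8 and the secreted inhibitors 4 against 9.16. For the inhibitors the difference rests largely on Dkk2. Without Lef1 and Tcf7l2 the other 6 intracellular genes held 30 peaks, against 19.2 for genes of their lengths. A peak within 1 kb of a gene end was found in 4 of the 8 (Dvl2, Axin1, Axin2 and Lef1), against 21.8% of protein-coding genes and 1.71 of 8 genes in their length bins.

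Lef1 (chr3:131110297-131224357), a transcription factor that binds β-catenin, held 22 peaks in 114 kb, more than 94.0% of the 200 genes nearest in length. The 10 peaks in the first part of the gene, up to its middle, had a median fold of 7.94 and the 11 in the second part one of 23.6. The highest was at chr3:131184118-131184968, with a fold of 32.7 from 243 reads over 6.47. Tcf7l2 (chr19:55741797-55933659), a related factor, held 20 peaks in 192 kb; 88.0% of its neighbours in length held fewer. Its highest fold, 39.2, was at chr19:55931353-55932030, 1968 bp before the far end. Tcf7, another factor of this family, held 3 peaks with folds of 8.82, 8.0 and 33.1, close to the 2.96 of genes of its length.

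Axin2, a scaffold of the destruction complex and a common target of Wnt signalling, held 8 peaks in 33.0 kb, more than 93.0% of genes of its length. Their folds, in order from the start, were 16.2, 21.7, 44.2, 15.2, 16.4, 9.36, 32.6 and 22.4. The highest, a peak of 1384 bp at chr11:108941661-108943044, had 325 reads over 6.37. No peak lay within 8.17 kb of its start, and one lay 368 bp inside its far end. Its relative Axin1 held 5, of which one, with a fold of 30.9, lies across a gene end. Apc, a large scaffold of the complex, held 6 with folds of 6.78 to 18.9. The Dishevelled gene Dvl2 is only 9.52 kb long and held 5 peaks, more than 96.0% of genes of its length, with folds of 9.63, 35.7, 32.7, 40.6 and 9.36. The last of these lies 600 bp past its end, in the neighbouring gene Acadvl. Dvl1 held 3, with folds of 35.5, 8.95 and 16.7.

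**Figure D3:**
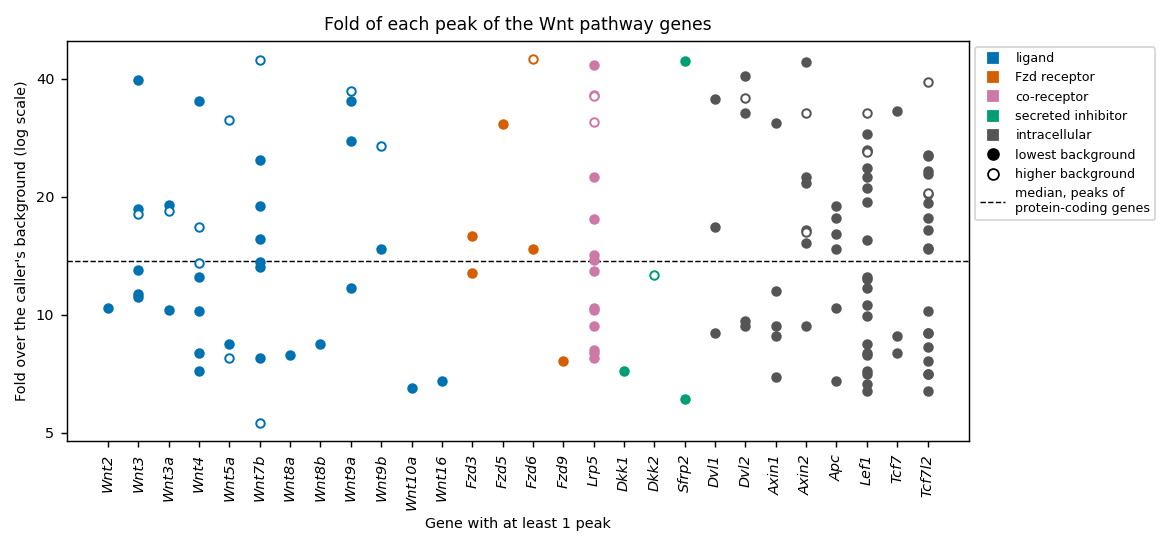
Fold over the caller's background (log scale) of each of the 135 peaks, by gene, coloured by role; filled points have the lowest recovered background of 6.37 reads, open points a higher one, and the dashed line is the median of 13.7 over peaks of protein-coding genes. In Lef1 the folds run from 6.38 to 32.7 and in Wnt7b from 5.29 to 44.7, and the 5 ligands with a single peak lie under the line.

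In values the peaks were much like those of other genes. The median fold over the 135 peaks was 14.7 (quartiles 8.95 and 23.1), against 13.7 (8.82 and 22.6) over peaks of protein-coding genes, and 31.1% had a fold of at least 20, against 30.7%. The median width was 373 bp, against 392 bp, and the median −log10 q was 87.9, against 94.1. By role the median fold was 13.4 in ligands, 15.3 in Fzd genes, 13.8 in Lrp5, 9.90 in secreted inhibitors and 15.3 in intracellular genes. These medians rest on 38, 6, 15, 4 and 72 peaks.

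This lowest recovered background, 6.37 reads, stood under 113 of the 135 peaks (83.7%, interval 76.6% to 89.0%), against 85.1% of the peaks of protein-coding genes. The interval gives counting error only and treats the peaks as separate, although many share a gene. The ligands had a higher background in 10 of 38 peaks and the intracellular genes in 8 of 72. At 7 peaks the background was 2 or more times this value, 1 each in Wnt3, Wnt3a, Wnt4, Wnt5a, Wnt7b, Dkk2 and Axin2, or 5.19% of the 135 against 8.89% over protein-coding genes. Their pileups, 256 to 471 reads, included the highest of all: the peak with 471 reads was in Wnt3a over a background of 24.6, and those in Wnt5a and Wnt7b had 415 and 414. At the lowest background no Wnt peak exceeded 326 reads.

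Along the genes, the peaks lay towards the far end. The 19 genes with a listed start and a peak in the body held 89 such peaks, of which 58 (65.2%) lay past the middle and 38 (42.7%) in the last 25% of the gene. Over 7952 protein-coding genes the shares were 61.3% and 35.2%, and over those with 10 or more CG 62.5% and 36.1%. Only 4 of the 89 lay in the first 10% (4.49%, against 5.71%). The peak with the highest fold lay past the middle in 15 of 19 genes (78.9%, against 64.3%, and 67.2% with 10 or more CG). The exceptions were Wnt8b, Wnt16, Fzd5 and Tcf7. Median folds were 10.2 before the middle and 18.3 after it, and the same direction, by less, was seen over protein-coding genes (12.9 and 14.4). Without Lef1 and Tcf7l2 the share past the middle was 72.9%.

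**Figure D4:**
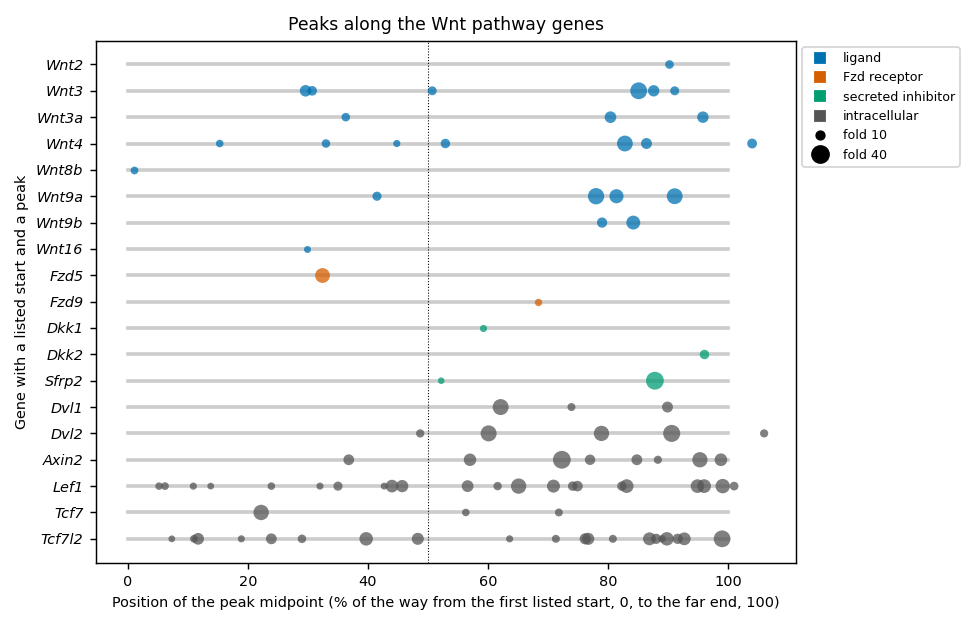
Position of each peak midpoint between the first listed start (0%) and the far end of the gene (100%) for the 19 Wnt genes with a listed start and a peak; the area of a point is proportional to the fold and its colour gives the role. The larger points gather to the right of the dotted middle line in Wnt4, Wnt9a, Axin2 and Lef1, and the first 10% holds 4 peaks.

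At the gene ends, 11 of the 38 genes (28.9%) had a peak within 1 kb of either end, against 21.8% of protein-coding genes and 22.8% in their length bins (8.65 genes). These were Wnt4, Wnt7b, Wnt8a, Wnt8b, Fzd9, Lrp5, Sfrp2, Dvl2, Axin1, Axin2 and Lef1, with 12 peaks. Among the 26 genes with a listed start, 6 had one at the far end (23.1%, against 16.9% of protein-coding genes): Wnt4, Fzd9, Sfrp2, Dvl2, Axin2 and Lef1.

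The share of the remaining Wnt pathway genes with a peak was above that of their length bins, within counting error, and numbers of peaks differed by role. These genes were not run under the alternative settings. Of 70 further genes listed, 48 were on covered sequence, and 44 of these had a peak (91.7%, interval 80.4% to 96.7%). The 81.3% of their length bins lies within the interval. They held 246 peaks, where genes of their lengths hold 222. The highest numbers were in Celsr1, a cadherin of planar polarity (25, more than 95.5% of genes of its length), in the receptor Ror2, the R-spondin receptor Lgr5 and the ubiquitin ligase subunit Btrc (14 each) and in the co-receptor Lrp4 (12). Wls, needed for Wnt secretion, the bone inhibitor Sost, the kinase gene Csnk1a1 and the Dvl antagonist Nkd2 had none, and for the 99 kb of Wls 93.0% of genes of like length held a peak. However, the list holds no peak on chromosome 3 past the start of Wls, and the nearest lay 61.2 kb before it. By role, the 6 planar polarity genes held 59 peaks, where genes of their lengths hold 30.7, and the 4 R-spondin genes, whose products raise Wnt receptor levels, held 7, where genes of their lengths hold 19. The 14 further intracellular genes held 70 against 52.4, the receptors and co-receptors 51 against 47.1 and the secreted inhibitors 10 against 9.98. Nuclear genes were listed apart here, with the TCF/LEF factor Tcf7l1 among them. In the main gene list Lef1, Tcf7 and Tcf7l2 were counted as intracellular, so these roles are not alike. Below the genes of their lengths were the nuclear genes (28 against 33.7), the membrane inhibitors (18 against 21.8) and the ligand and secretion genes (3 against 7.65). In the same order, these lower numbers rest on Tle4 (1 peak against 8.60), Znrf3 (5 against 9.23) and Wls (0 against 5.77). Of the 34 further genes with a listed start only Ctnnbip1, an inhibitor of β-catenin, had a peak within 1 kb of one (2.94%, against 7.81% of protein-coding genes and 5.52%, or 1.88 genes, from the CG classes). It was centred 184 bp upstream of its downstream start and overlapped that promoter window.

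The letters of the TCF/LEF core, CTTTGA or CTTTGT on either strand, were found in the first window of 6 of the 26 Wnt genes (23.1%), and of 28% of protein-coding genes. The 6 were Wnt3, Wnt8b, Fzd1, Fzd7, Dkk1 and Dkk2. A match gives the letters of a window only.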

How the data were processed

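MBD-seq libraries of 6 chondrocyte cultures, sonicated to fragments of about 300 bp per the labels' protocols, underlie 1 deposited peak list. The submitters' processing notes name fastp, Bowtie2, MACS2 and the builds mm10 and GRCm38, without versions or parameters. Per the file's peak names, 3 datasets were merged with Samtools first. The columns follow the narrowPeak layout: the deposited fold is a ratio of the peak to what the caller took as background, the deposited −log10 p-value and −log10 q-value belong to each peak, the deposited score is 10 times the −log10 q cut to a whole number, and the remaining values used are positions. The lowest −log10 q was 20.0. The list as used ends in an incomplete line, which was left out. Genes past 88.8 Mb of chromosome 6 and on chromosomes absent from the list could not be examined. Of the 70 further pathway genes, 22 were not on covered sequence.

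Peaks were placed on a RefSeq table of GRCm38.p6 genes ending beyond the first 3 Mb of a chromosome. The table has no exons, so exons and introns were not analysed. Length matching used 10 bins of protein-coding genes, and numbers of peaks were set beside the 200 nearest in length. Pileup and background were solved from the fold, (pileup + 1)/(background + 1), and the Poisson p-value for a whole pileup; 99.97% of peaks matched within 1% of the spacing between whole pileups, and all 135 peaks of the Wnt genes did. The code was tested on simulated data. Python 3.11.15, pandas 2.3.3, numpy 2.4.6, scipy 1.17.1 and matplotlib 3.10.9 were used.

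No test was run, since no value belongs to a sample; the planned test of control against cKO was not possible. The members and gene lists were chosen with earlier results of these data known. Named in full were, in each role, the 3 genes with most peaks, the gene with the highest fold and those with a peak within 1 kb of a start; of the other pathway genes, the 5 with most peaks, those with a peak at a start and those with none. Wnt9a and Fzd9 were printed as the windows with most CG; the Wnt8b and Dkk1 windows and the analysis of position along the gene were chosen after values were seen. Alternatives changed the −log10 q, the fold, the placement of peaks, the window, merging, the background and the length match.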

Additional observations from a re-analysis of the deposited data

How the results depend on the processing

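No paired analysis was possible because peaks carry no values per sample. For the same reason no replicate was left out, and depth per sample is unknown. Of 125 values under alternative settings, 8 changed sign and 17 moved further than 1.5 times (counts) or the interval of the reported value, and these are given here.

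The 28 genes with a peak ranged from 20 to 29. Stricter peaks changed most of the rest. Ligands stood 9.16 points above their length bins, but -9.37 points at a −log10 q of at least 50, -5.93 points at 100 and -9.26 points at a fold of at least the median; the number with a peak was 7 at 100 and 7 at that fold. Secreted inhibitors, 1.65 points above, were at -10.8 points, -3.00 points and -25.6 points under these 3 settings, at -1.59 points with a 2 kb window and at -13.9 points with peaks at the lowest background; 1 of them had a peak at the median fold. Fzd receptors with a peak were 2 at a −log10 q of 100, and their distance from the length bins, -7.05 points, ran from -13.7 points there to -0.0409 points with a 2 kb window. Intracellular genes stayed at 8 of 8 under each setting, and 17.6 to 33.5 points above their bins. Genes with a peak at an end were 5 at 100, 7 at the median fold, 17 with a 2 kb and 5 with a 500 bp window. Genes with a peak at a listed start, a value added after the data were seen, were 0 at 50, 0 at 100, 0 at the median fold and 5 with 2 kb. The 135 peaks became 62 at 100 and 73 at the median fold, and their median fold 18.9 at 50, 25.1 at 100 and 22.4 at the median fold, as the filters themselves bring about.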

Other observations

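Several Wnt ligand genes lie side by side. Where both starts are listed, those of such neighbours shared 1 peak-free interval. How often the starts of other close genes do so was not examined. The starts of Wnt3a and Wnt9a on chromosome 11, whose gene bodies are 16.1 kb apart, lay in an interval of 42.7 kb without a peak midpoint. Those of Wnt9b and Wnt3, whose gene models overlap by 1.1 kb on the same chromosome, lay in 1 of 55 kb. Those of Wnt10b and Wnt1 on chromosome 15, 11.7 kb apart, lay in 1 of 54.2 kb, and the whole span of both genes held no peak. No peak lay between Wnt6 and Wnt10a on chromosome 1 either, 6.70 kb apart, and the span of both genes held 1 peak. Wnt10a has no listed start, so a shared interval could not be given for this pair. The interval around the start had a median of 49 kb over 11 ligands and 19.4 kb over the other 15 Wnt genes with a listed start. Over protein-coding genes it was 38.5 kb, and 34.5 kb over those with 10 or more CG. The neighbours share intervals, so the 11 ligands are not separate observations, and this comparison was made after the values were seen.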
